A study of Mus musculus with 18 samples.

Results

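Aminoacyl-tRNA synthetases were followed as 35 genes, 19 for the enzymes of the cytosol and 16 for those of mitochondria, among 55414 genes in the count table. The members are a list of gene symbols with no threshold on a measured value, and the list was drawn up with earlier results of these data known. All 35 passed the filter of at least 10 counts in total, which left 21772 genes for testing. The synthetase with the fewest reads, Pars2, still had 60 to 138 counts in every library.

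RNA came from C2C12 cells, an immortalised mouse myoblast line that fuses into myotubes in low-serum medium. All cultures were differentiated to day 6 and had received small interfering RNA (siRNA), either non-targeting (siNtc) or directed against Erk3 (siErk3) or Mk5 (siMk5). Each of these 3 was kept for 16 h with bovine serum albumin (BSA) as control or with 0.5 mM palmitic acid (PA), a saturated fatty acid, which gave 6 groups of 3 libraries. Erk3 is an atypical mitogen-activated protein kinase, and Mk5 is a kinase that binds and is activated by it. The comparisons ask how the fatty load and the loss of either kinase alter transcripts of muscle cells. The data describe cultures of 1 cell line, and since the labels do not say which libraries came from separate cultures, p-values measure the spread between libraries.

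The libraries held 13041979 to 28496727 assigned read pairs, with a median of 22417470.5. Myotube markers were abundant in every group, with mean Myog at 325 to 491 CPM (read pairs scaled to an equal library size) and mean Acta1 at 3025 to 3518 CPM, whereas defining genes of adipocytes (Adipoq, Plin1, Cidec) and macrophages (Ptprc, Adgre1) had fewer than 10 counts over all 18 libraries. Fabp4 and Csf1r, the other listed markers of these 2 cell types, had 11 and 93 counts. Markers of cycling myoblasts were detected as well, with means in siNtc BSA of 408 CPM for Mki67, 304 for Top2a, 41.6 for Pax7 and 5.92 for Myf5. The share of unfused cells in the cultures was not measured. The silencing check gave Mapk6, the gene of Erk3, at 55.2 to 60.3 CPM in the siErk3 BSA libraries against 129 to 135 CPM in siNtc BSA, and at 109 to 131 CPM against 215 to 244 CPM with PA. Mapkapk5, the gene of Mk5, was measured near the floor, at 2.32 to 2.54 CPM in siNtc BSA and 1.18 to 2.01 CPM in siMk5 BSA, and its difference did not pass the test (log2 fold change -0.61, edgeR FDR 0.47). No pair of replicates agreed within sampling noise. Ribosomal 18S RNA (Rn18s-rs5) took 1.5% to 12.87% of the counts of a library, which bears on Lars2 below.

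Synthetases join each amino acid to its tRNA and thereby supply the ribosome. Vertebrate cells encode separate sets for the cytosol and for mitochondria, except that lysyl- and glycyl-tRNA synthetases of both compartments come from Kars1 and Gars1, and mitochondrial glutaminyl-tRNA is made by an indirect route. Of the cytosolic enzymes, 7 in the list sit together in the multisynthetase complex (Eprs1, Iars1, Kars1, Lars1, Mars1, Qars1 and Rars1), a scaffolded assembly, and the rest act free of it. When amino acids run short or unfolded proteins accumulate, the integrated stress response raises translation of the transcription factor ATF4, whose known targets include amino acid transporters, asparagine synthetase and several cytosolic synthetases. ATF4 acts with C/EBP proteins at C/EBP-ATF response elements (CARE), here searched as TGATGNAA on both strands.

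Promoter windows of 300 bases, from 250 before to 50 after the start site, were found in RefSeq (GRCm38.p6) for 26 of the 35 members. CARE letters stood in 5 of 12 cytosolic windows and in those of 0 of 14 mitochondrial genes, against 3.97% of all 32851 windows. They are shown because all 5 genes rose with PA, as given further on. Each stretch of 30 bases runs 5′ to 3′ on the strand of its gene, with the 8 matching letters in capitals. The Aars1 match shown lies at chr8:111033840-111033869 (plus strand), the Gars1 match at chr6:55037960-55037989 (plus), the Iars1 match at chr13:49682126-49682155 (plus), the Tars1 match at chr15:11399655-11399684 (minus) and the Yars1 match at chr4:129189895-129189924 (plus). The Gars1 match begins 30 bases upstream of the start site and the Tars1 match 15, while those of Aars1, Iars1 and Yars1 begin at base 10, 8 and 4 downstream of it.
Aars1: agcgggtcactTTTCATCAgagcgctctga
Gars1: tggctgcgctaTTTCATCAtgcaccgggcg
Iars1: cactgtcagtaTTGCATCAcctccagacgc
Tars1: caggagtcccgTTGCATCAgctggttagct
Yars1: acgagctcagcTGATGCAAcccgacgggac
In 4 of the 5 matches shown the letters lie on the opposite strand, and Yars1 carries TGATGCAA on its own strand. Also searched on both strands were CCGGAAG, a motif of ETS factors, and the core letters of the interferon-stimulated response element (ISRE). CCGGAAG stood in 5 of 12 cytosolic windows (Farsa, Gars1, Kars1, Mars1 and Sars1) and in 4 of 14 mitochondrial ones (Cars2, Mars2, Rars2 and Sars2), against 8.86% of all windows, and the ISRE letters stood in that of Qars1 alone, against 3.44%. A match describes letters in this window and is not evidence of binding. No entry was found for Cars1, Hars1, Lars1, Nars1, Rars1, Vars1, Wars1, Hars2 and Pars2.

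In the siNtc BSA controls the 2 sets stood at different levels. To compare genes, CPM were divided by exonic length in kilobases. That length covers all annotated exons of a gene and not 1 transcript, so ranks and ratios between genes depend on it. Eprs1 had a mean of 265 CPM over 18102 bases in siNtc BSA, and Gars1 163 CPM over 3119 bases. In siNtc BSA the highest cytosolic level was that of Gars1, the glycyl enzyme, at 52.3 ± 1.2 (SD, n = 3) CPM per kilobase, followed by Nars1, the asparaginyl enzyme, at 42.0 ± 0.16, and these 2 did not overlap. The lowest cytosolic level was that of Cars1, the cysteinyl enzyme, at 7.08 ± 0.31. Apart from Lars2, the mitochondrial genes ran from Iars2, the isoleucyl enzyme, at 8.75 ± 0.15 down to Pars2, the prolyl enzyme, at 1.40 ± 0.05. Iars2 was thus the sole mitochondrial gene besides Lars2 above any cytosolic member, namely Cars1. Lars2, the leucyl enzyme of mitochondria, ranked above all others at 119 ± 44.0. Its spread was far wider than that of any other member, and Lars2 is described separately below. Its counts moved with the share of ribosomal RNA, and whether its rank reflects its messenger RNA was not tested. In siNtc PA Gars1 (131 ± 7.57) and Nars1 (121 ± 8.98) kept the leading cytosolic ranks, and the ranges of their libraries overlapped. Wars1, the tryptophanyl enzyme, had rank 15 in siNtc BSA (15.6 ± 0.47) and rank 5 in siNtc PA (67.2 ± 4.36). Kars1, the lysyl enzyme, had rank 4 (28.4 ± 0.15) and rank 15 (32.5 ± 0.97) in these groups.

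PA raised most cytosolic synthetases. A gene was called changed at an edgeR false discovery rate (FDR) below 0.05 together with a fold change above 1.3. In siNtc cells 16 of 19 cytosolic genes rose and none fell, against 30.6% of all tested genes called in either direction, 15.5% higher and 15.1% lower. The median cytosolic log2 fold change was 1.02 beside -0.03 over all genes tested. With siErk3 16 of 19 rose (background 32.1% either way, 15.8% higher) with a median of 1.05, and with siMk5 16 of 19 rose (background 29.7% and 15.1%) with a median of 0.98. The 3 genes outside each of these counts were the histidyl, lysyl and glutaminyl enzymes, Hars1, Kars1 and Qars1. The 3 PA comparisons use separate libraries. BSA and PA groups did not overlap for 19, 19 and 18 of the 19 cytosolic genes in siNtc, siErk3 and siMk5, beside 51.3%, 53.9% and 51.9% of all genes. Averaged over the siRNAs, 16 of 19 cytosolic genes and 4 of 16 mitochondrial genes (Ears2, Nars2, Wars2 and Yars2) rose, with medians of 1.02 and 0.04, beside 37.3% of all genes called. A test for any difference among the 6 groups passed for 19 of 19 cytosolic and 10 of 16 mitochondrial genes, beside 51.9% of all genes.

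The widest change was that of Wars1, which interferon also induces. Its level was 53.1, 52.7 and 55.7 CPM in siNtc BSA and 214, 239 and 242 CPM in siNtc PA. It was 54.7, 59.5 and 60.6 CPM in siErk3 BSA and 249.9, 248 and 237 CPM in siErk3 PA, and 54.6, 53.9 and 58.7 CPM in siMk5 BSA and 231, 219 and 216 CPM in siMk5 PA. Every PA library stood well above every BSA library, and the 3 siRNAs gave like levels within each medium. The log2 fold change was 2.10 ± 0.05 (SE) in siNtc, a 4.30-fold rise with FDR 5.4e-24, 2.07 ± 0.05 in siErk3 and 2.00 ± 0.05 in siMk5. The exact two-sided permutation test of its 3 against 3 libraries gave p = 0.1 in each siRNA, which is the smallest value such groups allow.

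Sars1, the seryl enzyme, was measured at 118, 129 and 130.3 CPM in siNtc BSA and 338, 367 and 390.1 CPM in siNtc PA, a log2 fold change of 1.54 ± 0.06. In siErk3 its libraries went from 137, 135 and 140.4 to 423, 395 and 363 CPM, and in siMk5 from 128, 135 and 128 to 383, 372 and 345 CPM. The PA and BSA ranges lay far apart in each siRNA, with log2 fold changes of 1.52 ± 0.06 and 1.49 ± 0.06 for the silenced cells. Nars1 held 183, 182 and 183 CPM in siNtc BSA against 492, 516 and 568 CPM in siNtc PA, and the log2 fold change was 1.52 ± 0.05. With siErk3 the Nars1 values were 186, 194 and 192 against 596, 568 and 504 CPM, and with siMk5 181, 183 and 187 against 545, 511 and 496 CPM. Seryl- and asparaginyl-tRNA synthetases use amino acids whose own synthesis enzymes, such as Psph and Asns, are in the stress response list described below.

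Gars1 went from 163, 159.8 and 167 CPM in siNtc BSA to 384, 413 and 431 CPM in siNtc PA (log2 fold change 1.33 ± 0.05). In siErk3 it was at 163, 169 and 169 CPM and then at 445, 435 and 394 CPM, and in siMk5 at 158, 165 and 164 CPM and then at 412, 401 and 389 CPM. Lars1, the leucyl enzyme and a known sensor of leucine for growth signalling, was at 136, 131 and 129 CPM in siNtc BSA and at 293, 308 and 308 CPM in siNtc PA (1.20 ± 0.04). Its siErk3 libraries held 133, 133 and 131 CPM without PA and 326, 327 and 307 CPM with it, and its siMk5 libraries 124, 126 and 135 CPM and 302, 296 and 293 CPM. For these genes the BSA and PA groups did not overlap in any siRNA. Wars1, Lars1, Nars1, Gars1 and Sars1 had the smallest FDR of the members in each of the 3 PA comparisons.

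The other cytosolic genes formed a graded series. In siNtc the log2 fold change was 1.41 for Cars1, 1.28 for the alanyl enzyme Aars1, 1.18 for the isoleucyl enzyme Iars1, 1.12 for the threonyl enzyme Tars1, 1.02 for the tyrosyl enzyme Yars1 and 1.01 for Eprs1, whose product charges both glutamate and proline. Smaller rises were those of the arginyl enzyme Rars1 (0.81), the valyl enzyme Vars1 (0.74), both subunits of the phenylalanyl enzyme, Farsa (0.65) and Farsb (0.59), and the methionyl enzyme Mars1 (0.45). Mars1 passed the fold criterion narrowly, and without siNtc BSA replicate 1, the shallowest library, its log2 fold change of 0.36 no longer did. Farsa and Farsb form 1 enzyme together, and in siErk3 they gave 0.61 and 0.58, in siMk5 0.63 and 0.61. The Aars1 value carries a limit, since 14.29% of its exonic bases are shared on the same strand with Exosc6.

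Hars1, Kars1 and Qars1 moved the same way by less than the fold criterion. Hars1 was at 65.3, 65.9 and 71.4 CPM in siNtc BSA and at 77.9, 81.4 and 85.7 CPM in siNtc PA, with a log2 fold change of 0.27 ± 0.05 and FDR 3.2e-05. Kars1 gave 0.19 ± 0.04 (FDR 2.7e-04) and Qars1 0.14 ± 0.05 (FDR 0.01). In siMk5 the Qars1 groups overlapped, with FDR 0.15. On FDR alone the cytosolic count was 19 of 19 in siNtc and siErk3 and 18 of 19 in siMk5. The share of all genes at FDR alone was not counted in any PA comparison. Within the multisynthetase complex 5 of 7 genes rose in every siRNA, with medians of 0.81 (siNtc), 0.78 (siErk3) and 0.82 (siMk5), and outside it 11 of 12 rose with medians of 1.20, 1.22 and 1.17. Members of the complex therefore did not share a single size of change, since Lars1 rose by 1.20 and Qars1 by 0.14 on the log2 scale in siNtc. The counts of 5 of 7 and 11 of 12 stand beside 15.5%, 15.8% and 15.1% of all genes called higher in siNtc, siErk3 and siMk5.

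**Figure D1:**
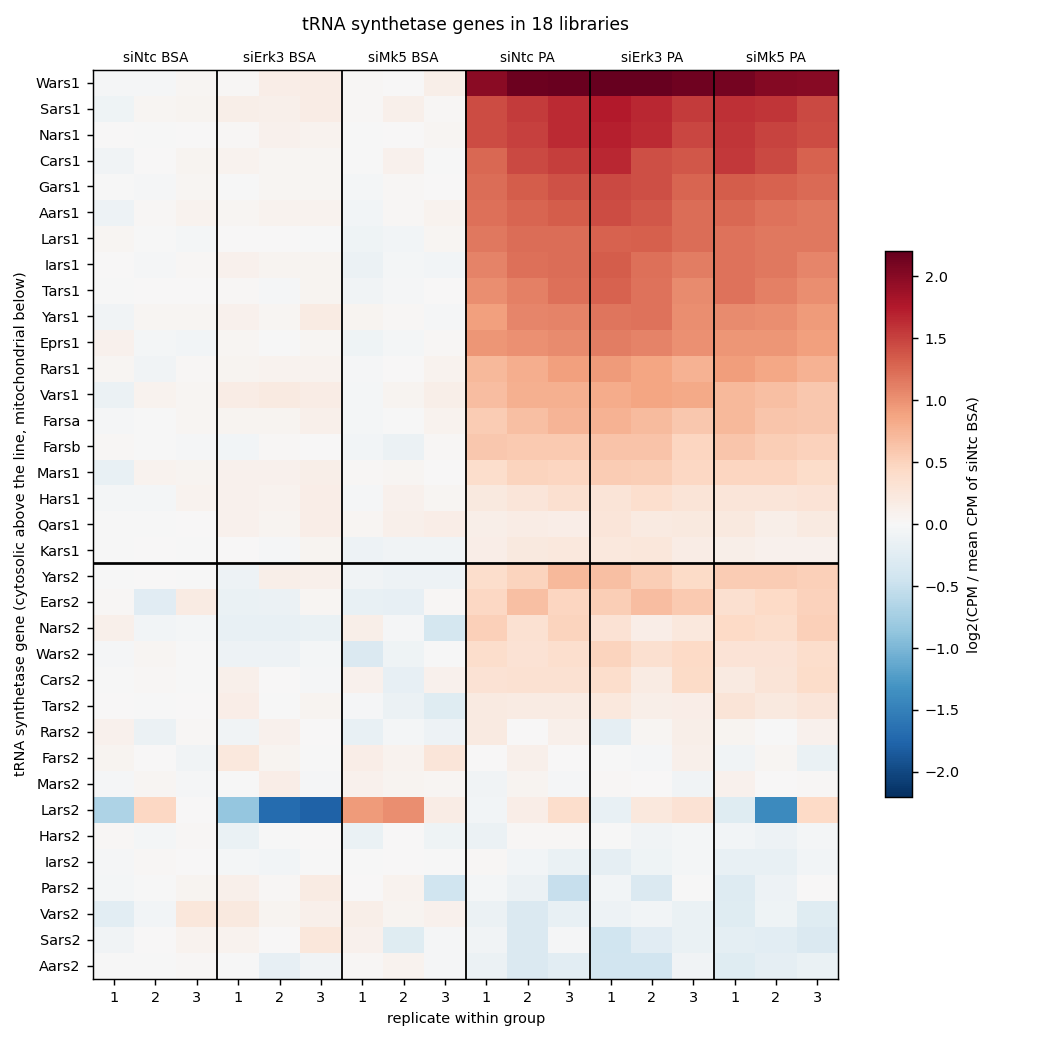
Level of each of the 35 genes in each of the 18 libraries as log2 of CPM over the mean CPM of the siNtc BSA group, with libraries in columns by group and replicate and genes in rows. Red cells fill the 9 PA columns for most of the 19 cytosolic genes above the line, while the 16 mitochondrial genes below it stay pale apart from Lars2, whose colour varies between libraries of the same group.

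The 5 cytosolic genes with CARE letters in their promoter window rose by 1.02 to 1.33 on the log2 scale in siNtc, with a median of 1.18. Of the 7 cytosolic genes with a window that lacked the letters (Eprs1, Farsa, Farsb, Kars1, Mars1, Qars1 and Sars1) 5 rose, and their median was 0.59 over a range of 0.14 to 1.54. The letters did not mark all large changes, since Sars1 lacked them in this window, and Wars1 and Nars1 had no window to search. Over the 12863 tested genes with a window, 26.5% of the 396 with CARE letters and 18.8% of the 12467 without them were called higher in siNtc PA, while 13.1% and 17.7% were called lower. Among the amino acid response genes described further on, 10 of 10 with CARE letters and 18 of 18 without them rose, with medians of 1.85 and 1.90, so that in that list the letters did not go with a larger rise. These values are descriptions, and the letters were chosen with the response known.

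Mitochondrial synthetases moved less and in both directions. In siNtc 3 of 16 rose and none fell, with a median log2 fold change of 0.08. With siErk3 5 rose and 1 fell (15.8% of all genes were called higher and 16.3% lower), with a median of -0.01, and with siMk5 5 rose and 1 fell (15.1% higher and 14.6% lower), again with a median of -0.01. These counts of 3, 6 and 6 of 16 stand beside 30.6%, 32.1% and 29.7% of all genes called. On FDR alone 7, 9 and 11 of the 16 passed, with no share of all genes counted at that threshold. The groups did not overlap for 7, 9 and 11, beside 51.3%, 53.9% and 51.9% of all genes. Ears2, Nars2 and Yars2 rose in each siRNA.

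Yars2, the tyrosyl enzyme, was at 17.4, 17.4 and 17.4 CPM in siNtc BSA and 22.6, 24.5 and 28.5 CPM in siNtc PA (log2 fold change 0.53 ± 0.08, FDR 1.7e-06). In siErk3 it was at 16.1, 19.1 and 18.8 CPM against 27.6, 25.3 and 23.3 CPM, and in siMk5 at 16.4, 16.2 and 16.1 CPM against 25.5, 25.6 and 25.1 CPM. The BSA and PA groups stayed apart in each siRNA.

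Ears2, the glutamyl enzyme, was at 10.4, 8.54 and 11.5 CPM in siNtc BSA and 13.9, 16.1 and 14.1 CPM in siNtc PA (0.54 ± 0.10, FDR 2.3e-05). In siErk3 it went from 9.21, 9.28 and 10.4 to 14.8, 16.3 and 15.2 CPM (0.67 ± 0.09), and in siMk5 from 9.07, 8.96 and 10.3 to 13.03, 13.8 and 14.4 CPM (0.54 ± 0.10). Nars2, the asparaginyl enzyme, was at 22.9, 20.3 and 20.6 CPM in siNtc BSA and 30.6, 26.9 and 29.9 CPM in siNtc PA (0.46 ± 0.09, FDR 4.4e-05). In siErk3 its libraries held 18.9, 19.02 and 19.3 CPM against 26.5, 23.5 and 24.9 CPM (0.38 ± 0.09), and in siMk5 23.2, 20.8 and 16.2 CPM against 28.8, 27.7 and 30.7 CPM (0.53 ± 0.09). All PA libraries of both genes lay above the BSA libraries of the same siRNA. In siErk3 Nars2 stood close to the fold criterion and lost its call without siErk3 BSA replicate 1 (0.37) or 2 (0.37) or siErk3 PA replicate 1 (0.32) or 3 (0.37), and with the share of 18S RNA as a covariate (0.37).

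Wars2, the tryptophanyl enzyme and partner of Wars1, was at 10.5, 10.96 and 10.6 CPM in siNtc BSA and 13.9, 13.3 and 13.8 CPM in siNtc PA, a log2 fold change of 0.35 ± 0.08 that had an FDR of 6.4e-04 but missed the fold criterion at 1.28-fold. In siErk3 it rose from 9.89, 9.87 and 10.3 to 15.1, 13.7 and 14.5 CPM (0.52 ± 0.08), and in siMk5 from 8.59, 10.1 and 10.7 to 13.1, 13.2 and 13.98 CPM (0.46 ± 0.08). Without siMk5 BSA replicate 1 the siMk5 value of 0.37 no longer passed. Tars2, the threonyl enzyme, rose in siMk5 from 27.8, 25.6 and 23.5 to 34.3, 32.7 and 34.0 CPM (0.39 ± 0.06, FDR 4.4e-06), and that call was lost without siMk5 BSA replicate 3 (0.33) or siMk5 PA replicate 1 (0.36). Its log2 fold change was 0.19 in siNtc and 0.10 in siErk3, neither of which passed.

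Sars2, the seryl enzyme, was the sole mitochondrial gene besides Lars2 to fall at both criteria in any siRNA. In siErk3 it was at 6.42, 6.11 and 7.23 CPM with BSA and at 4.47, 5.10 and 5.46 CPM with PA (-0.40 ± 0.11, FDR 3.7e-03). Without siErk3 BSA replicate 3 (-0.33) or siErk3 PA replicate 1 (-0.35) it no longer passed. In siNtc the BSA libraries held 5.76, 6.08 and 6.38 CPM and the PA libraries 5.76, 4.88 and 5.96 CPM, which overlapped (-0.14 ± 0.12, FDR 0.36). Sars1, its cytosolic partner, had one of the widest rises.

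The remaining mitochondrial genes passed in no siRNA. In siNtc the log2 fold change was 0.33 for the cysteinyl enzyme Cars2, 0.11 for the arginyl enzyme Rars2, 0.05 for the phenylalanyl enzyme Fars2, -0.02 for the histidyl enzyme Hars2, -0.02 for the methionyl enzyme Mars2, -0.06 for the isoleucyl enzyme Iars2, -0.21 for the prolyl enzyme Pars2, -0.22 for the alanyl enzyme Aars2 and -0.22 for the valyl enzyme Vars2. Cars2, at 14.1, 14.4 and 14.04 CPM in siNtc BSA and 17.7, 17.97 and 17.8 CPM in siNtc PA, had an FDR of 1.4e-03 with a change below the fold criterion. In siMk5 the PA libraries of Vars2 (-0.30), Aars2 (-0.23), Fars2 (-0.22) and Iars2 (-0.13) all lay below the BSA libraries. Those of Cars2 (0.28) and Rars2 (0.15) all lay above them. These changes were under the fold criterion, and in siMk5 51.9% of all genes had groups that did not overlap. Hars1 and Hars2 lie head to head, and 7.97% of the exonic bases of Hars1 and 4.56% of those of Hars2 overlap the other gene on the opposite strand. Counting used strand.

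**Figure D2:**
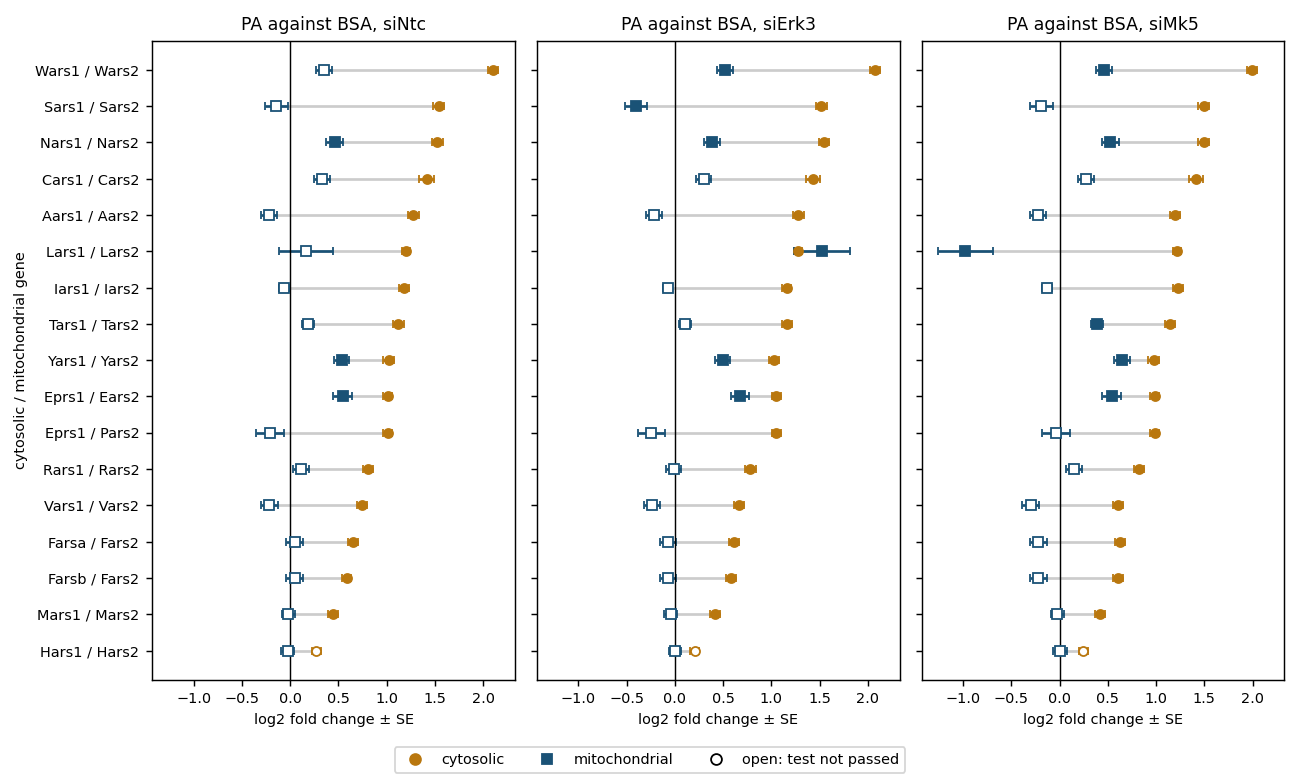
Log2 fold change of PA against BSA with its SE for the cytosolic gene (circles) and the mitochondrial gene (squares) of each of 17 pairs that charge the same amino acid, in each siRNA, with open symbols where the test was not passed. The circles lie to the right of the squares in all pairs except Lars1 and Lars2 in siErk3.

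Pairing the genes by amino acid gave 17 pairs, of which Eprs1 and Fars2 each enter 2. The cytosolic gene had the larger log2 fold change in 17 of 17 pairs in siNtc, 16 of 17 in siErk3 and 17 of 17 in siMk5. These counts are descriptions and no test was made over the pairs. In siNtc the difference was widest for Wars1 over Wars2 (1.75 on the log2 scale), Sars1 over Sars2 (1.68) and Aars1 over Aars2 (1.496). It was smallest for Hars1 over Hars2 (0.30), Eprs1 over Ears2 (0.47) and Mars1 over Mars2 (0.47). Yars1 and Yars2, which both rose, differed by 0.49.

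In levels per kilobase the ratio of Sars1 to Sars2 went from 13.3 in siNtc BSA to 42.5 in siNtc PA. The ratio of Wars1 to Wars2 went from 8.68 to 29.2, that of Nars1 to Nars2 from 13.7 to 28.9 and that of Yars1 to Yars2 from 2.47 to 3.46. Lars1 stayed below Lars2, with a ratio of 0.21 in siNtc BSA and 0.42 in siNtc PA. The Lars2 level ran from 382 CPM (siErk3 BSA replicate 3) to 2684 CPM (siMk5 BSA replicate 2). Per percent of counts taken by ribosomal RNA it ran from 175 (siMk5 BSA replicate 3) to 323 CPM (siNtc BSA replicate 1). Whether the Lars2 counts measure its messenger RNA was not tested, so this ratio cannot be read as one between leucyl enzyme transcripts.

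**Figure D3:**
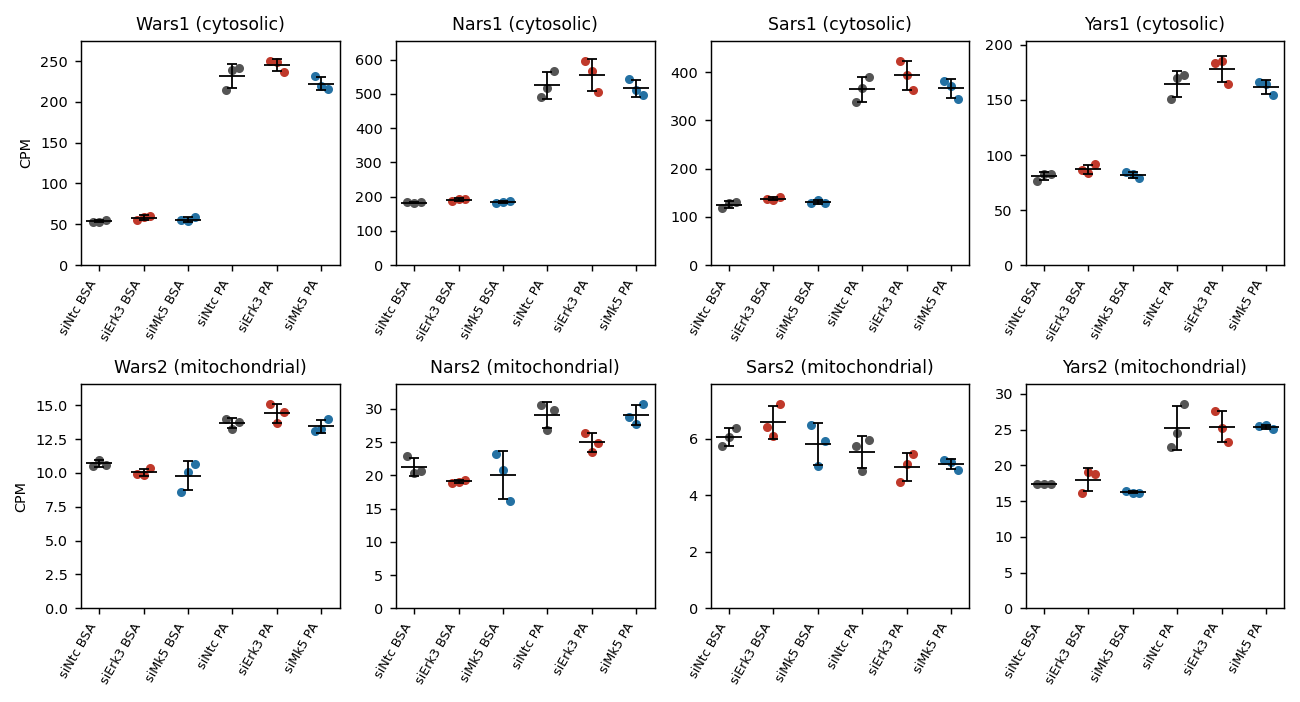
CPM of 4 cytosolic genes (upper row) and their mitochondrial partners (lower row) in the 6 groups, with 1 point per library and bars for the mean and SD of 3 libraries. Each axis starts at 0 and has its own scale. The cytosolic PA points stand far above the BSA points, those of Wars2, Nars2 and Yars2 stand above them by less, and those of Sars2 overlap with BSA in siNtc and siMk5.

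Summed over the 19 genes, cytosolic synthetases made up 2215 ± 24.6 CPM in siNtc BSA and 4675 ± 238 CPM in siNtc PA (SD, n = 3). The sum went from 2317 ± 28.1 to 4905 ± 276 CPM in siErk3 and from 2212 ± 60.7 to 4577 ± 172 CPM in siMk5. The 15 mitochondrial genes other than Lars2 summed to 297 ± 4.21 CPM in siNtc BSA and 319 ± 3.23 CPM in siNtc PA. Their sums were 296 ± 2.65 and 312 ± 5.22 CPM in siErk3, and 291 ± 4.95 and 315 ± 7.18 CPM in siMk5. The ratio of the sums was thereby 7.47 ± 0.07 in siNtc BSA and 14.65 ± 0.85 in siNtc PA, 7.83 ± 0.04 and 15.72 ± 1.11 in siErk3, and 7.60 ± 0.34 and 14.56 ± 0.85 in siMk5. The lowest ratio of any PA library was 13.64 and the highest of any BSA library 7.92.

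Silencing of either kinase changed no cytosolic synthetase at the criteria used. For siErk3 against siNtc in BSA, 0 of 19 cytosolic genes and 1 of 16 mitochondrial genes, Lars2, were called by edgeR, beside 0.785% of all genes. At an unadjusted p under 0.05 there were 4 cytosolic genes, and DESeq2 called 0 cytosolic and 1 mitochondrial. The share of all genes at an unadjusted p under 0.05 was not counted in any comparison, so member counts at that threshold have no background beside them. The cytosolic median was 0.07 on the log2 scale against 0.02 over all genes. Vars1 had the smallest p of the cytosolic genes, with 128, 146 and 143 CPM in siNtc BSA and 155, 159 and 156 CPM in siErk3 BSA (0.17 ± 0.05, FDR 0.13), and it did not pass. Among the other mitochondrial genes Nars2 had the smallest p (-0.15 ± 0.09, FDR 0.60). Of the cytosolic genes Sars1 came next after Vars1, at 118, 129 and 130.3 CPM against 137, 135 and 140.4 CPM (0.13 ± 0.06, FDR 0.41). Groups did not overlap for 9 cytosolic and 3 mitochondrial genes, beside 17.4% of all genes. For Vars1 and Sars1 the lowest value was that of siNtc BSA replicate 1.

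With PA, siErk3 against siNtc gave 0 calls in either class, beside 0.556% of all genes. At an unadjusted p under 0.05 there were 1 cytosolic and 1 mitochondrial gene, and DESeq2 called none. These were Yars1, at 151, 169.6 and 173 CPM in siNtc PA and 184, 185 and 164 CPM in siErk3 PA (0.11 ± 0.05, FDR 0.58), and Nars2, at 30.6, 26.9 and 29.9 CPM and 26.5, 23.5 and 24.9 CPM (-0.22 ± 0.08, FDR 0.38). Of the members, 2 cytosolic and 1 mitochondrial did not overlap between groups, beside 12.1% of all genes. The Yars1 groups overlapped and the Nars2 groups did not. Next by p were Sars1 (0.11, FDR 0.61), with the PA values given above, and Rars2, at 20.6, 18.01 and 19.4 CPM in siNtc PA and 15.7, 18.6 and 19.6 CPM in siErk3 PA (-0.11, FDR 0.79), whose groups overlapped.

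For siMk5 against siNtc, 0 members were called in BSA, beside 0.0643% of all genes, and 0 in PA, beside 0.547%. DESeq2 likewise called none. At an unadjusted p under 0.05 there were 1 cytosolic and 2 mitochondrial genes in BSA, and 1 and 0 in PA. In BSA these were Qars1, at 85.3, 85.5 and 85.7 CPM in siNtc and 87.9, 91.9 and 95.0 CPM in siMk5 (0.10 ± 0.05, FDR 0.69), Lars2 (0.75 ± 0.28, FDR 0.59) and Tars2, at 28.3, 27.9 and 28.3 CPM and 27.8, 25.6 and 23.5 CPM (-0.13 ± 0.06, FDR 0.72). Kars1 was at 127, 128 and 126 CPM in siNtc BSA and 117, 121 and 121 CPM in siMk5 BSA (-0.09, FDR 0.73). In PA the gene was Kars1, at 140.4, 147 and 149 CPM in siNtc and 139, 136 and 135 CPM in siMk5 (-0.09 ± 0.04, FDR 0.71). Next by p in PA were Vars1, at 222, 239 and 239.6 CPM in siNtc and 228, 219 and 210.2 CPM in siMk5 (-0.09, FDR 0.81), Lars2 (-0.39, FDR 0.90) and Iars2, at 78.6, 74.9 and 69.8 CPM and 69.1, 69.5 and 74.9 CPM (-0.07, FDR 0.92). Groups did not overlap for 3 cytosolic and 3 mitochondrial genes in BSA (12.3% of all genes) and for 1 and 1 in PA (12% of all genes). Since the loss of Mapkapk5 RNA did not pass its own test, these comparisons describe cells that received siMk5. Silencing of both targets was also checked by Western blot in the study, which was not analysed here.

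Comparing the silenced cells with each other, siErk3 against siMk5 gave 0 cytosolic and 1 mitochondrial call (Lars2) in BSA, beside 0.588% of all genes. In PA it gave 0 calls, beside 1.03%, and DESeq2 called none there. At an unadjusted p under 0.05 there were 3 cytosolic and 2 mitochondrial genes in BSA (Lars2 and Tars2 of the latter), and 7 cytosolic and 1 mitochondrial in PA. The shares of 0.588% and 1.03% hold for FDR with fold change and cannot be set beside these counts. All 19 cytosolic differences lay above 0 in both media, from 0.0026 to 0.15 on the log2 scale in BSA and from 0.02 to 0.18 in PA. Against siNtc, 18 of 19 lay above 0 for siErk3 in BSA and 18 of 19 in PA. Vars1 came nearest to passing, with 243, 254 and 248 CPM in siErk3 PA and 228, 219 and 210.2 CPM in siMk5 PA (0.18 ± 0.05, FDR 0.057). Groups did not overlap for 5 cytosolic and 3 mitochondrial genes in BSA (15.3% of all genes) and for 5 and 2 in PA (14.7%). The 3 comparisons in each medium share their libraries, so that their shifts are not independent of each other.

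**Figure D4:**
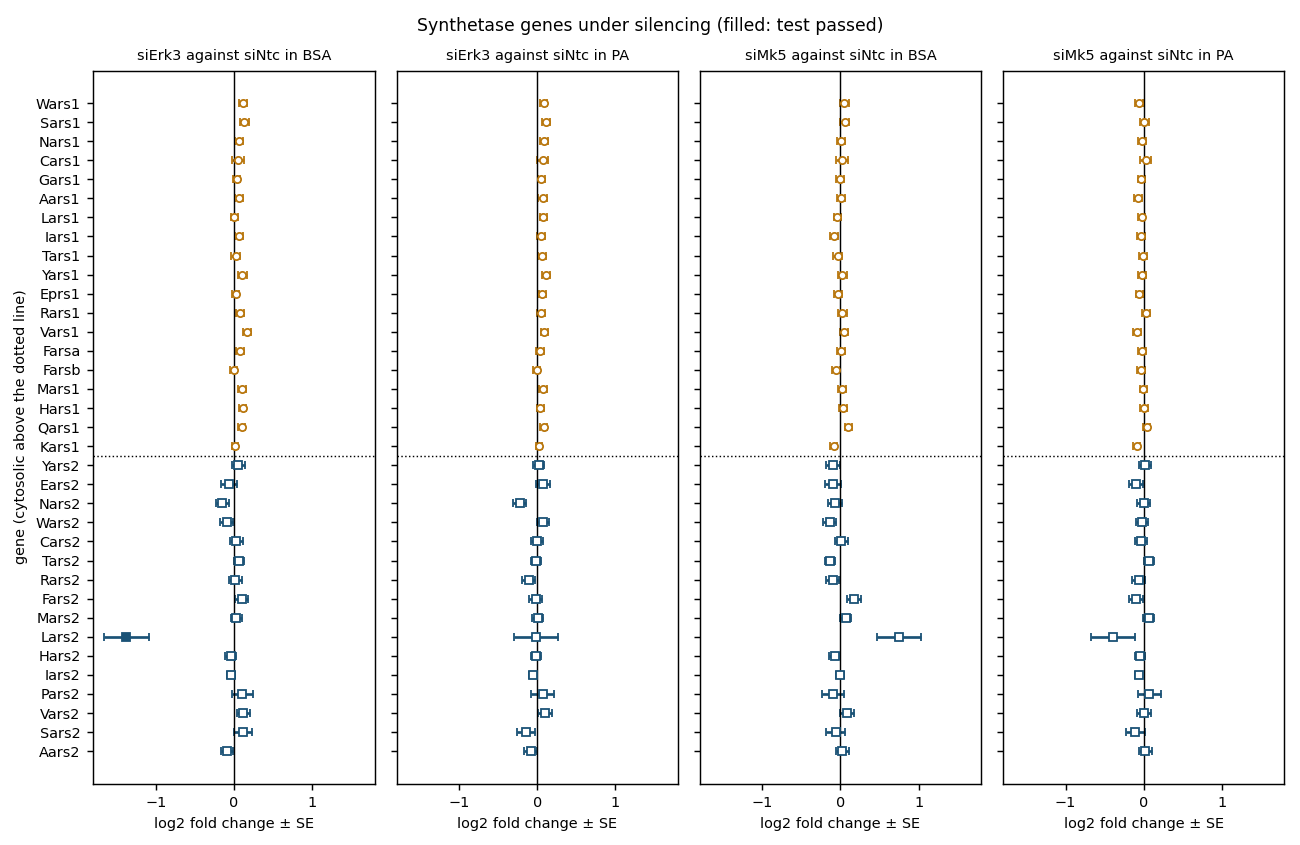
Log2 fold change with its SE for each member in siErk3 and in siMk5 against siNtc, within BSA and within PA, with cytosolic genes above the dotted line and filled symbols for genes that passed. The cytosolic genes stay close to 0 in each panel, and Lars2 in siErk3 BSA is the sole filled symbol.

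Whether silencing altered the response to PA was tested as an interaction. With siErk3 0 members were called (0.0367% of all genes) and with siMk5 0 (0.211%). At an unadjusted p under 0.05 there was 1 mitochondrial gene with siErk3, Lars2, and there were 3 with siMk5, namely Lars2, Tars2 and Fars2, but no cytosolic gene in either. DESeq2 called none. Among cytosolic genes Vars1 had the smallest p with siMk5 (-0.14 ± 0.07, FDR 0.68) and Lars1 with siErk3 (0.08 ± 0.06, FDR 0.88). The cytosolic interaction estimates lay between -0.08 and 0.08 for siErk3 and between -0.14 and 0.05 for siMk5 on the log2 scale.

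Lars2 differed from the other members in its spread and in its direction. It was at 827, 1804 and 1325 CPM in siNtc BSA, 733, 409.8 and 382 CPM in siErk3 BSA, and 2513, 2684 and 1472 CPM in siMk5 BSA. With PA it was at 1266, 1466 and 1715 CPM in siNtc, 1181, 1554 and 1649 CPM in siErk3, and 1103, 499 and 1790 CPM in siMk5. The siErk3 BSA libraries lay below those of siNtc BSA and siMk5 BSA, and siMk5 PA replicate 2 fell within their range. Its coefficient of variation within groups was 15.2% to 57.2%, against a median of 3.78% for cytosolic genes and 5.59% for the other mitochondrial genes.

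By the test, Lars2 was lower in siErk3 than in siNtc in BSA (-1.38 ± 0.29, FDR 6.8e-03) and lower in siErk3 than in siMk5 (-2.13 ± 0.29, FDR 4.2e-05). It rose with PA in siErk3 (1.52 ± 0.29, FDR 4.2e-05), fell with PA in siMk5 (-0.98 ± 0.28, FDR 5.0e-03) and did not pass in siNtc (0.17 ± 0.28). In siMk5 the groups overlapped. Its PA effect in siErk3 exceeded that in siMk5 by 2.50 ± 0.40 (FDR 2.4e-03), the sole call of a member in that comparison, beside 0.0735% of all genes. The call against siNtc was lost without siNtc BSA replicate 2 (-1.08) or siErk3 BSA replicate 2 (-1.24) or 3 (-1.20).

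The share of 18S RNA moved with Lars2. It was 2.56%, 7.17% and 5.64% in siNtc BSA, 2.96%, 1.82% and 1.497% in siErk3 BSA, and 10.8%, 12.9% and 8.39% in siMk5 BSA. With PA it was 5.32%, 6.12% and 6.43% in siNtc, 3.74%, 5.87% and 6.77% in siErk3, and 4.34%, 1.71% and 6.69% in siMk5. In 6 of 6 groups the 3 libraries had the same order by 18S share and by Lars2. With the 18S share as a covariate, an alternative chosen after seeing the data, Lars2 gave -0.30 (FDR 0.27) for siErk3 against siNtc in BSA, -0.07 (FDR 0.95) for siErk3 against siMk5 in BSA, 0.36 (FDR 8.3e-03, under the fold criterion) for PA in siErk3 and 0.20 (FDR 0.19) for PA in siMk5. None of its calls between 2 groups was kept. The cytosolic counts with PA were 16, 16 and 16 in that fit too, and the mitochondrial counts 3, 4 and 5, with the siErk3 count lower by Lars2 and Nars2. Without the covariate and leaving Lars2 out, the mitochondrial counts were 3 of 15 higher in siNtc, 4 higher and 1 lower in siErk3 and 5 higher in siMk5, with medians of 0.05, -0.01 and 0.00.

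**Figure D5:**
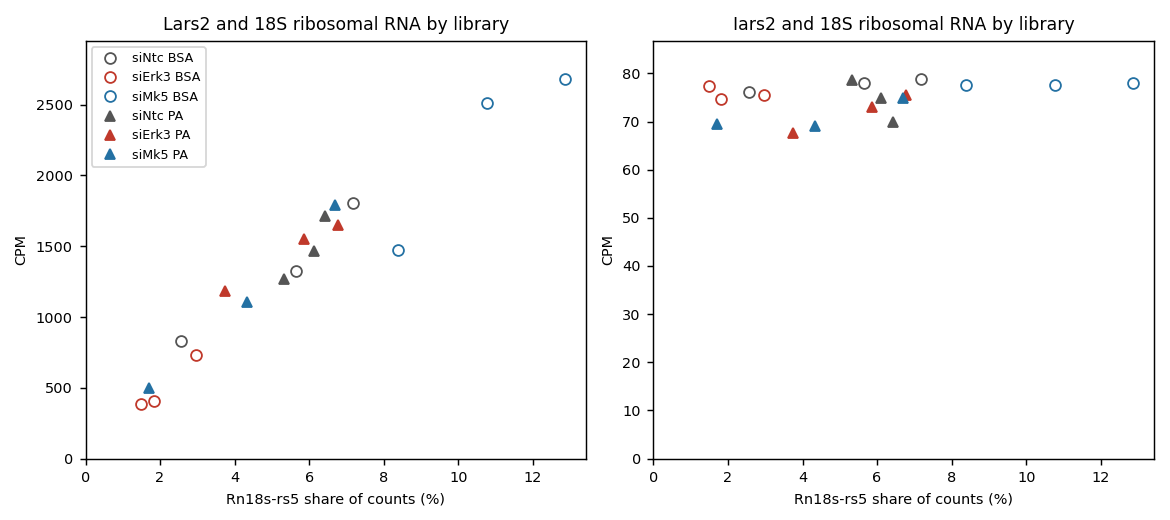
CPM of Lars2 (left) and of Iars2 (right) against the share of counts taken by 18S RNA in percent, with 1 point for each of the 18 libraries, open circles for BSA and triangles for PA. Lars2 is low where the 18S share is low, as in siErk3 BSA and siMk5 PA replicate 2, and highest in the 2 libraries with the highest share, whereas Iars2 stays between 67.6 and 78.9 CPM.

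The amino acid response genes that ATF4 is known to control rose alongside the cytosolic synthetases. Of 34 listed genes 34 rose in each siRNA, with medians of 1.88 (siNtc), 1.79 (siErk3) and 1.79 (siMk5). Among all genes 15.5% were called higher in siNtc, 15.8% in siErk3 and 15.1% in siMk5. The list was written with earlier results of these data known and so is no independent evidence of direction. Atf4 itself was at 216, 223 and 232 CPM in siNtc BSA and 616, 673 and 701 CPM in siNtc PA (1.57 ± 0.05). Asns, which makes asparagine, was at 38.6, 39.2 and 38.5 CPM against 185, 207 and 216 CPM (2.38 ± 0.07). Trib3, a pseudokinase induced by stress, rose by 5.02, Ddit3, the stress factor CHOP, by 4.24 and Chac1, which degrades glutathione, by 3.77 on the log2 scale. Of the synthetases only Wars1, at 2.10 in siNtc, exceeded the median of this list.

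Other genes of translation were mostly below the fold criterion with PA. Their counts stand beside 15.5%, 15.8% and 15.1% of all genes called higher in siNtc, siErk3 and siMk5. Of 9 accessory genes, which scaffold the synthetase complex or edit and complete charged tRNAs, 2 rose in siNtc, 1 in siErk3 and 2 in siMk5, where 1 fell. Eef1e1, a scaffold protein of the complex, rose in each (0.88, 0.87 and 0.80), Aimp2, another scaffold, rose in siNtc (0.45) and siMk5 (0.40), and Dtd1, which removes wrongly charged D-amino acids, fell in siMk5 (-0.43). The siErk3 count became 2 without siErk3 BSA replicate 1 or siErk3 PA replicate 2 or 3. Of 8 cytosolic elongation genes 1 rose in siNtc, Eif5a (0.39), and 0 in siErk3 or siMk5. Eif5a stood at the fold criterion, and the siNtc count became 0 with DESeq2, with its size factors, with filterByExpr, and without siNtc BSA replicate 1 or 3 or siNtc PA replicate 2 or 3. At FDR alone 6, 6 and 5 of these 8 passed, again with no share of all genes counted.

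Mitochondrial translation factors gave 1 of 9 higher in siNtc, 2 in siErk3 and 1 in siMk5, with Tsfm, the elongation factor Ts, in each (0.39, 0.49 and 0.50) and the release factor Mtrf1l in siErk3 (0.39). The siNtc count became 0 with DESeq2, with its size factors, with filterByExpr, with the 18S share as covariate, and without siNtc BSA replicate 1 or siNtc PA replicate 2 or 3, and 2 without siNtc BSA replicate 2 or siNtc PA replicate 1. The siErk3 count became 1 without siErk3 BSA replicate 3 or siErk3 PA replicate 1 or 2. Of 10 genes that process or modify mitochondrial tRNA, 4 rose in siNtc and 3 in each of siErk3 and siMk5. Of all genes, 15.5%, 15.8% and 15.1% were called higher in siNtc, siErk3 and siMk5. Pus1, a pseudouridine synthase, rose by 1.15, 1.01 and 0.94, Trmt10c, a subunit of mitochondrial RNase P, by 0.81, 0.97 and 0.99, and Trnt1, which adds the CCA end, by 0.59, 0.65 and 0.74 in siNtc, siErk3 and siMk5. Mto1, a tRNA-modifying enzyme, rose in siNtc (0.40).

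Markers of cell state moved with PA as well. Of 4 markers of cycling myoblasts 3 fell in each siRNA, with Mki67 at -1.13, Top2a at -1.06 and Pax7 at -0.85 in siNtc. Of 8 myotube markers 4 fell in siNtc (Myog -0.59, Myh8 -0.51, Mymk -0.42, Ckm -0.38) and 2 in each of siErk3 and siMk5. The counts of both lists stand beside 15.1%, 16.3% and 14.6% of all genes called lower in siNtc, siErk3 and siMk5. Not all myotube markers went down, since mean Des was 2012 CPM in siNtc BSA and 2174 CPM in siNtc PA. Mean Acta1 was 3190 and 3025 CPM in these 2 groups. Csf1r of macrophages and Pecam1, Cdh5 and Kdr of endothelium had group means of at most 0.48 CPM. In bulk RNA, fewer cells of a type and less RNA per cell cannot be told apart, and the part of these shifts in the synthetase levels was not tested.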

How the data were processed

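RNA-seq was done on 18 C2C12 libraries in 6 groups of 3. Per the study's methods and the file headers, the authors trimmed reads with TrimGalore 0.6.7 and cutadapt 3.4, aligned them with STAR 2.7.9a and counted read pairs per gene by strand with featureCounts 2.0.0 on Ensembl release 105. The processing notes name mm10 and the study's methods GRCm39. The header of the counts names a GRCm39 annotation, so genes were counted on GRCm39 coordinates. No coordinates of the count table were printed or converted. The authors deposited raw counts per gene, which were used for all tests, and a table of log2 values, which matched the filter of at least 10 counts and was used for that check alone. The study used DESeq2 1.34. Here edgeR 4.0.16 quasi-likelihood tests (R 4.3.3, TMM scaling, 1 coefficient per group, all 18 libraries) were the main test on 21772 genes, with Benjamini-Hochberg FDR below 0.05 and a fold change above 1.3, and DESeq2 1.42.0 an alternative. CPM used TMM-scaled totals. The fit was checked on simulated data.

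Groups came from the labels. The members and gene lists were chosen with earlier results of these data known. All 35 members were to be named. Library values were to be given for at most 5 passing members per class and comparison with the smallest FDR, or the 2 with the smallest p where none passed, and for Wars1. Of each list, at most 4 members with the smallest FDR were to be named, besides Atf4, Asns, Trib3, Ddit3 and Chac1. Alternatives were other size factors, filters, criteria and samples, a replicate block, each library left out, and the 18S share as covariate. Totals of 13041979 to 28496727 read pairs and 3 libraries per group limit the precision. One of the CARE matches is not reported here.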

Additional observations from a re-analysis of the deposited data

Results flagged for a closer look

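The response of Lars2 to PA differed between siErk3 and siMk5 by 2.50 ± 0.40 on the log2 scale (edgeR FDR 2.4e-03), in a comparison added after the data were seen. Lars2 was higher with PA in siErk3 (1.52) and lower in siMk5 (-0.98), and it was the sole one of the 35 members called in this comparison, beside 0.0735% of all genes. DESeq2 gave 2.51 (FDR 0.015). With the 18S share as a covariate the difference was 0.16 (FDR 0.94). The 18S share of the counts ran from 1.497% to 2.96% in siErk3 BSA and from 8.39% to 12.9% in siMk5 BSA, so that it moved with the same groups.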

How the results depend on the processing

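The cytosolic counts with PA were 15 to 16 of 19 with any library left out in siNtc and 16 in siErk3 and siMk5. With the 18S share as covariate, the cytosolic median became 0.029 for siErk3 against siNtc in BSA, 0.0081 for siErk3 against siMk5 in BSA, 1.12 for PA in siErk3 and 0.087 for the PA effect in siErk3 against that in siMk5. The mitochondrial median became 0.017 for PA in siNtc, 0.087 for PA in siMk5 and -0.048 for the PA effect in siErk3 against that in siMk5. The mitochondrial count became 0 for siErk3 against siNtc in BSA, 0 for siErk3 against siMk5 in BSA and 0 for the difference in PA effect, and Lars2 in siMk5 turned from -0.98 to 0.20. Without the filter on low counts 1 mitochondrial gene, Lars2, was called for siMk5 against siNtc in BSA and in PA, for siErk3 against siMk5 in PA and for both interactions, with its SE at 0.04 for siMk5 against siNtc in BSA in place of 0.28. The cause was not tested. On FDR alone the mitochondrial count was 7 in siNtc, 11 in siMk5 and 10 over the averaged PA effect, where 4 passed both criteria.

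With single libraries left out, the mitochondrial count for siErk3 against siNtc in BSA was 0 to 1 and its median -0.012 to 0.026. The mitochondrial median ran from -0.080 to -0.014 for siMk5 against siNtc in BSA, from 0.0082 to 0.066 for PA in siNtc and from -0.022 to 0.057 for PA in siMk5. The cytosolic median ran from 0.97 to 1.07 for PA in siNtc and from -0.055 to 0.043 for the siErk3 interaction. Tars2 in siMk5 missed the fold criterion with DESeq2 (0.38), with its size factors (0.38) and with only the groups compared (0.37).

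Same-numbered libraries did not deviate in a common direction (mean r -0.01, from -0.61 to 0.52 over 15 pairs of groups and 10553 genes). For replicates 1 and 3, r was 0.516 and 0.432 between siErk3 PA and siMk5 PA. Between siNtc PA and siErk3 PA it was -0.607 and -0.595. Such mixed values cannot tell whether the numbers pair cultures, and the main test did not pair libraries. With a replicate block Lars2 gave -1.37 for siErk3 against siNtc in BSA (FDR 0.011), and no call of a member changed. Fits with only the groups compared were not run for the averaged PA effect.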
